A study of Mus musculus with 8 samples.

Results

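Of 15823 adenines called as N6-methyladenine (N6mA, an adenine with a methyl group on its outer nitrogen) outside 4 satellite-rich areas of the mouse genome, 1099 lay in CpG-dense contexts. A context was the 41 bases centred on the called adenine, as deposited with each call, and it counted as CpG-dense when a C was followed directly by a G (a CpG step) at least 2 times. The membership rule read the context sequence and the position, and no measured value. Calls on 1 unplaced contig and in chr9 3.0-3.1 Mb, chr14 19.4-19.5 Mb and chr2 98.6-98.7 Mb (mm10) were left out. This removed 1595 of all 17418 calls, 316 of which had a CpG-dense context. The comparison set was the 11226 calls of the same lists and area with no CpG step, and the remaining 3498 calls had 1 step.

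The calls came from TT2 cells, a mouse embryonic stem (ES) cell line of C57BL6 x CBA background, grown without feeder cells and taken between passage 5 and passage 10. Chromatin holding the histone variant H2A.X was pulled down without crosslinking with a custom antibody, and its native DNA was read by single-molecule real-time (SMRT) sequencing. The 4 groups were wild type and Alkbh1 knockout (KO), each divided into long DNA (L) and short DNA (S), with 2 labelled replicates per group joined in 1 list of calls. Every group therefore shared the H2A.X pull-down, and no value had a replicate: the intervals below are 95% intervals that cover counting error only, and no p-value was available for a difference between groups. CpG-dense sites numbered 219 of 3501 calls in wild-type L, 169 of 2691 in KO L, 459 of 6606 in wild-type S and 252 of 3025 in KO S.

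ALKBH1 is a member of the AlkB family of dioxygenases and has been described as a demethylase of N6mA in ES cells. CpG steps are scarce in mammalian DNA outside CpG islands, which often cover gene starts, and a CpG step is where the cytosine can carry a methyl group of its own. In SMRT sequencing a polymerase copies single native molecules, and a call rests on the interpulse duration (IPD) ratio, the pause at a base divided by the pause predicted for unmodified DNA. The polymerase touches several template bases at once, so a modified base can change the pause at neighbouring bases as well as at its own.

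The called adenines of CpG-dense contexts had a recurrent spacing to the next CpG step, which the 8 sites shown next illustrate. They are, for each list, the 2 sites with the highest score among those with a step both 2 and 6 bases after the called adenine, outside sequences that recurred at several loci, and they were chosen after the spacing had been seen. Each line gives 29 bases from 5′ to 3′ on the strand of the call (mm10), with the called adenine and every CpG step in capitals.
Wild-type L, chr3:135377585-135377613, minus strand: cttgagcactcctgAgCGggCGctgcatc
Wild-type L, chr2:160056185-160056213, minus strand: caaatgaacctagcAtCGggCGtctctcc
KO L, chr4:137106281-137106309, minus strand: acagatgtgatgtgAcCGgcCGtctcaca
KO L, chr1:178299324-178299352, minus strand: GaggCGatgctggaAgCGctCGaacaata
Wild-type S, chr8:4409740-4409768, plus strand: gagtcctgtggcagAgCGgaCGcaggacc
Wild-type S, chr9:66805935-66805963, minus strand: gagcCGgcagcCGgAgCGacCGgccatgg
KO S, chr13:43262473-43262501, minus strand: tgtctttgccCGtaAtCGccCGaggatgt
KO S, chr10:13885447-13885475, plus strand: ggcatgatacattcAaCGagCGCGagtct
The chr3 site lay in Slc9b1, a gene of a sodium/proton exchanger, the chr1 site in the predicted gene Gm46174, the chr9 site in the pseudogene Ppp1r2-ps4 and the chr13 site in Gfod1 and an overlapping uncharacterised gene. The other sites lay in no gene of the RefSeq table. The 8 IPD ratios ran from 2.55 to 5.92, and the strongest call was the chr8 site, with a score of 94 at 80 reads.

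Across the lists, a CpG step began 6 bases after the called adenine in 22.4% of CpG-dense sites of wild-type L (49 of 219, interval 17.03 to 28.5%). The share was 23.7% in KO L (40 of 169, 17.5 to 30.8%) and 24.8% in wild-type S (114 of 459, 20.9 to 29.1%). KO S had 22.6% (57 of 252, interval 17.6 to 28.3%). Other adenines in the same contexts gave the background: a step began 6 bases after them in 6.24%, 4.43%, 5.62% and 6.56% of cases, in the same order of lists. The called share was above this background in all 4 lists, and each of the 4 intervals of the difference excluded 0. Over all members the shares were 23.7% of 1099 called adenines against 5.77% of 4680 other adenines, a ratio of 4.10.

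A second spacing was at 2 bases. A CpG step began 2 bases after the called adenine in 15.1% of wild-type L sites, 17.8% of KO L sites, 15.7% of wild-type S sites and 15.5% of KO S sites. The other adenines of those contexts had 6.45%, 5.67%, 5.21% and 6.46%. Both spacings held at once for 56 of 1099 sites (5.10%), against 0.406% of other adenines, and at least 1 of them held for 378 sites (34.4%, interval 31.6 to 37.3%), against 11.2%.

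**Figure D1:**
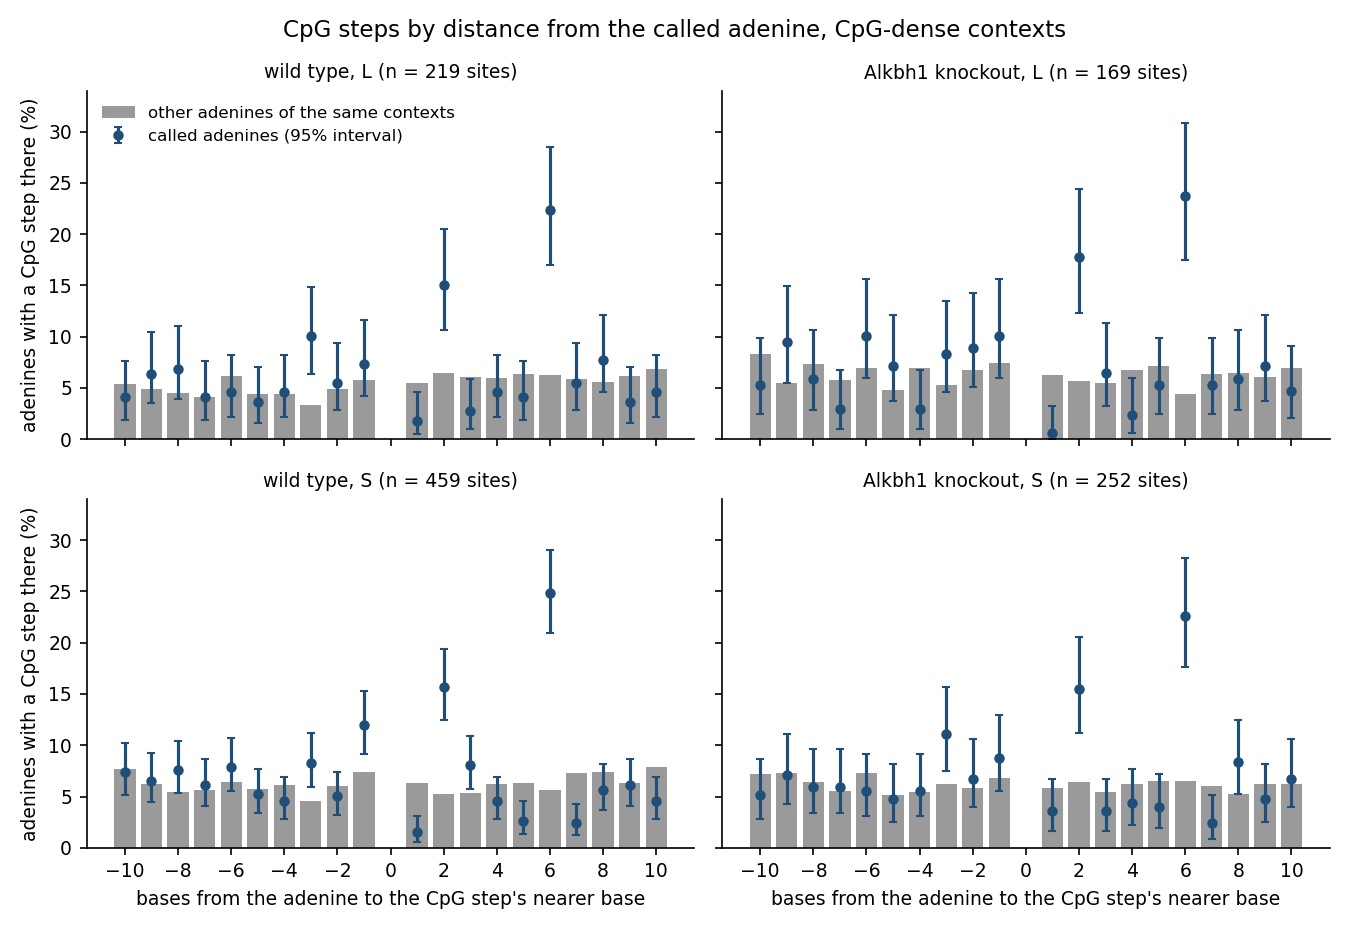
Share of adenines (%) with a CpG step at each distance, from 10 bases before to 10 bases after, for called adenines (points, bars are 95% intervals) and other adenines of the same CpG-dense contexts (grey bars), 1 panel per list. The points at 2 and 6 bases after the adenine stand above the grey bars in all 4 lists, and the point at 1 base after lies under its grey bar.

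The distances were chosen after all 20 from 10 bases before to 10 bases after had been looked at, so they describe these lists. Immediately after the called adenine the share was lower than background: ACG made up 1.91% of called adenines (21 of 1099) and 6.03% of the others. A step ending directly before the adenine, CGA, was found at 10.0% of called adenines and at 6.92% of others, and a step ending 3 bases before it at 9.28% and 4.81%. The C-then-G order stood apart from other pairs that begin with C: 6 bases after the adenine, CA was found at 8.55% of called and 6.15% of other adenines, CC at 4.37% and 5.64%, and CT at 5.46% and 5.36%. Of pairs that begin otherwise, TG was found there at 6.10% and 4.68%, and GC at 4.64% and 7.03%. At 2 bases after, TG had 7.01% and 4.59%, and GC 7.10% and 5.85%.

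Contexts with 1 CpG step, just outside the membership rule, had the same direction. A step began 6 bases after the called adenine at 228 of 3498 of them (6.52%, interval 5.72 to 7.39%) and after 2.16% of other adenines, and 2 bases after at 4.66% against 2.42%. Among contexts with 2 steps, 18.9% had a step at 6 bases, with 28.97% at 3 steps, 48.6% at 4 steps and 38.8% at 5 or more. The other adenines of those contexts had 4.41%, 8.41%, 15.2% and 9.70%. Adenine-centred windows of the same length with at least 2 steps, cut from RefSeq's promoter table (250 bases before to 50 after each gene start, GRCm38.p6), had a step 6 bases after the adenine in 9.66% and 2 bases after in 8.39% of 545369 windows. The windows were not matched to the members in number of steps, with which these shares change.

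KO and wild type did not differ in this spacing beyond counting error. For a step at 6 bases, KO L minus wild-type L was 1.29 percentage points (interval -7.40 to 10.2), and KO S minus wild-type S was -2.22 points (interval -8.77 to 4.66). For a step at 2 bases, the long DNA gave 2.68 points (interval -5.01 to 10.7). The short DNA gave -0.21 points (interval -5.80 to 5.79). The spacing at 6 bases was also present near gene starts, in 26.1% of the 92 members within 1 kb of one against 4.61% of their other adenines, and farther away, in 23.4% against 5.87%. The spacing at 2 bases was 10.9% against 10.0% near gene starts and 16.3% against 5.45% farther away. Cytosine methylation was not analysed here, and its part in these calls was not tested.

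Sites with a step at 6 bases had higher deposited modified fractions. The fraction is the share of molecules that the authors' software put down as modified at a site, given only where at least 11 reads covered it. In wild-type L its median was 89.8% at 21 sites with the step and 71.4% at 96 without it, a difference of 18.4 points (5.12 to 30.2). KO L had 95.9% at 18 sites and 69.3% at 52, with an interval of the difference from -16.3 to 37.97 that included 0. Wild-type S had 88.2% at 88 sites and 59.6% at 260, a difference of 28.6 points (22.01 to 35.1). KO S had 87.2% at 31 sites and 71.1% at 103, a difference of 16.1 points (4.50 to 27.7). Single sites overlapped widely in every list, with values of 100% on both sides. Copies of sequences that recurred at several loci were kept on both sides, and their part in these medians was not tested.

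**Figure D2:**
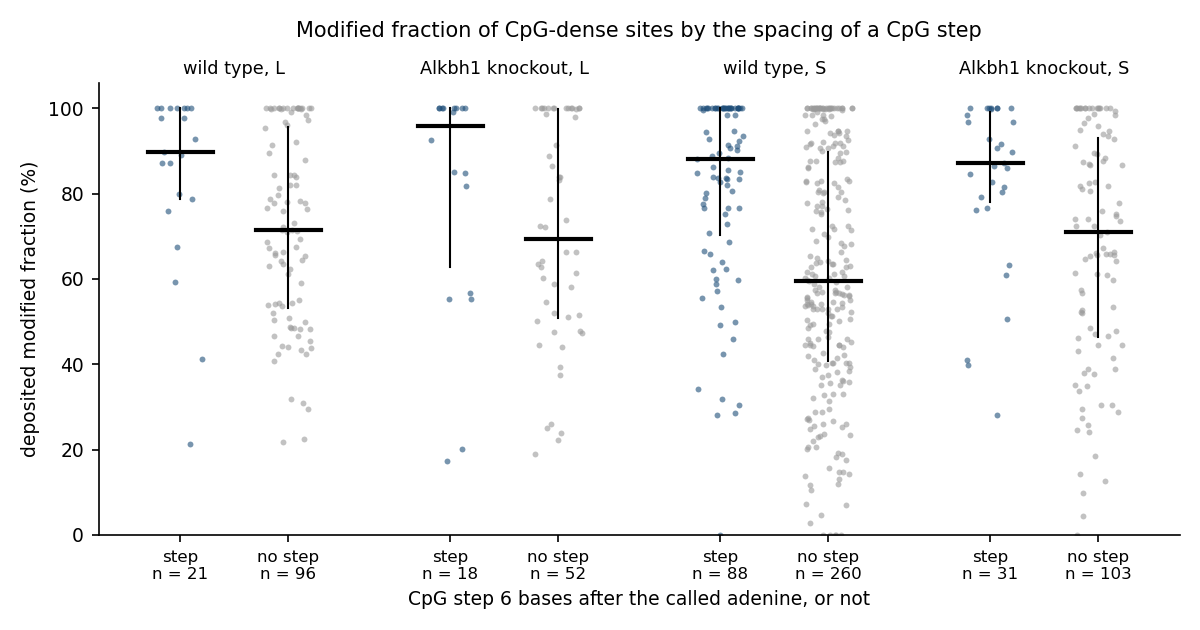
Deposited modified fraction (%) of each CpG-dense site with a fraction, by whether a CpG step begins 6 bases after the called adenine, in the 4 lists. Thick lines are medians and thin lines run between quartiles; the medians with the step lie between 87.2% and 95.9%, and those without it between 59.6% and 71.4%.

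Over all members, with or without a fraction, median coverage with and without the step differed by 1.0 read in each list, with intervals that included 0. Among the sites with a fraction it was 13 and 15 reads in wild-type L, 14.5 and 14 in KO L, 20 and 19 in wild-type S, and 16 and 17 in KO S. The IPD ratios of all members with and without the step were 2.71 and 2.59 in wild-type L, 2.90 and 2.82 in KO L, 2.74 and 2.57 in wild-type S, and 3.07 and 2.79 in KO S. These 4 differences had the same sign, and every interval included 0. In CpG-free contexts the fraction was 73.7%, 70.4%, 73.4% and 78.3% in the order wild-type L, KO L, wild-type S and KO S, so that members with the step were above it in wild-type L, wild-type S and KO S with intervals that excluded 0. In wild-type S, members without the step minus CpG-free sites gave -13.8 points (-17.96 to -8.99), and in the other lists that interval included 0. For the step at 2 bases, fraction differences with minus without it were 1.65, 13.4, 23.9 and 12.4 points in the same order of lists. IPD ratio differences were 0.155, 0.405, 0.615 and 0.26. Only the wild-type S intervals excluded 0, at 8.69 to 32.0 points and at 0.300 to 0.977.

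The spacing was found in some of the sequences that recurred in the genome and outside them. Of the 1099 members, 153 (13.9%) shared a run of 16 bases with a member at a separate locus, more than 1 kb away, in 30 families of sequence. No such share is given for CpG-free calls. By a narrower measure, the same 15 bases around a call at another locus, members had 3.20%, 4.14%, 4.79% and 5.56%. CpG-free sites had 4.23%, 4.92%, 4.92% and 3.34% (wild-type L, KO L, wild-type S, KO S), and no interval of the difference excluded 0. No repeat annotation was used, so a repeat name given here comes from the sequence. The cores of 15 bases shown next were called at the same base at 3 or more loci, with the called adenine in the middle and the same use of capitals.
Core at 8 loci in 3 lists: gcagcccAtCGgcCG
Core at 5 loci in 2 lists: gatggCGAcCGctgc
Core at 4 loci in 3 lists: cagcagcAgCGgtCG
All 3 cores had a CpG step 2 bases after the called adenine, and the first and the last also had a step 6 bases after it. The last 2 cores read opposite strands of overlapping sequence, so the 3 cores belong to 2 families and are not 3 separate sequences. Leaving out all recurring sequences, a step at 6 bases was found at 23.3% of 946 members and 5.61% of their other adenines, and a step at 2 bases at 14.7% and 6.17%. In KO S the excess at 2 bases was 9.01 points over all members and 5.45 points (0.959 to 10.8) outside the recurring sequences, and 1.86 points (-6.29 to 16.4) at coverage of 25 or more.

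The first core stood out by its IPD ratios, which ran from 3.48 to 6.48 over 8 loci (median 4.49), at 7 to 19 reads. It was called 2 times in wild-type L, 3 times in wild-type S and 3 times in KO S. The family around it held 10 sites at 10 loci, all with a step at 2 or 6 bases, and the deposited fractions of its members had a median of 98.9%. A member on the minus strand of chr13 is shown with more of its surroundings.
Family of the first core, wild-type S, chr13:86719684-86719712: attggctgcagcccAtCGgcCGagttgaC
The family of the other cores had 15 sites at 14 loci, 14 of them with a step at 2 or 6 bases, and a median IPD ratio of 3.50.

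The most frequent family was the B1 element, a short interspersed repeat derived from 7SL RNA, with 24 sites at 24 loci. Its calls were 1 of 219 members in wild-type L, 7 of 169 in KO L, 14 of 459 in wild-type S and 2 of 252 in KO S. These small counts were not compared between lists. Only 5 of the 24 had a step at 2 or 6 bases. A family with the sequence of an intracisternal A particle (IAP) long terminal repeat, an endogenous retrovirus that is heavily methylated in mouse cells, held 8 sites at 7 loci with a median IPD ratio of 4.18 and a median fraction of 100%. Of these 8 sites, 7 had a step at 2 or 6 bases. The family of the first core was given no name, and whether it holds another part of the same long terminal repeat was not tested. Among the other families of 4 or more sites, those of 9, 6, 6 and 5 sites had no step at 2 or 6 bases. Further ones had such a step at 4 of 16, 3 of 6 and 2 of 5 sites. A B1-like site and an IAP-like site are shown.
B1-like, wild-type S, chr16:8625674-8625702, plus strand: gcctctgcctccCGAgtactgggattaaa
IAP-like, KO S, chr7:11574119-11574147, minus strand: caCGCGctctCGtgAcCGgccaggaaaga

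Of the 1099 members, 16 calls (1.46%) were at a base called in more than 1 list, against 13 of 11226 CpG-free calls (0.116%) and 43 of all 15823 calls (0.272%). These 16 calls fell on 5 bases, which were called in 2 or more lists, 4 of them between 35305292 and 35305503 on chr9 and the fifth on an unplaced contig. The base chr9:35305292 was called in every list, with IPD ratios of 2.31 in wild-type L, 2.29 in KO L, 2.32 in wild-type S and 2.47 in KO S. The site had 425 reads in wild-type L, 550 in KO L, 1509 in wild-type S and 986 in KO S, and its fractions ran from 61.4% to 66.3%. The 4 lists were close to each other in ratio and in fraction. Its context matches the major (gamma) satellite of mouse, a tandem repeat beside the centromeres, and how reads were placed among its copies was not tested.
Base called in every list, chr9:35305278-35305306, plus strand: cactttaggaCGtgAaaaatggCGaggaa
Most of the deep sites lay there: 19 members had more than 100 reads, 14 of them at this locus and 4 on unplaced contigs. The gene table places the locus in the predicted gene Gm33838. Its 14 calls were the most of any gene, and most of them were the same bases called in more than 1 list.

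With all calls used, CpG-dense sites lay near gene starts more often than CpG-free sites in every list; at a score of 30 or more the wild-type L difference was -2.41 points, and at coverage of 25 or more it was -2.35 points there and 0.0 in KO L. Within 1 kb of a RefSeq gene start there were 15 of 219 members in wild-type L (6.85%), 17 of 169 in KO L (10.1%), 34 of 459 in wild-type S (7.41%) and 26 of 252 in KO S (10.3%). CpG-free sites had 1.76%, 1.88%, 1.88% and 1.45%. The differences were 5.09 points (2.06 to 9.31), 8.18 points (4.03 to 13.8), 5.53 points (3.27 to 8.35) and 8.87 points (5.35 to 13.3), and all 4 intervals excluded 0. CpG-free sites reweighted to the G+C of the members' contexts had 4.92%, 1.32%, 2.90% and 3.57% near gene starts. This left 1.93 points in wild-type L, 8.74 in KO L, 4.50 in wild-type S and 6.75 in KO S, without intervals. In the same order, 2, 4, 19 and 6 members had no CpG-free call in their G+C range and stayed in the member share. Many gene starts lie in CpG islands, and no set of uncalled adenines at equal coverage was analysed here. Members near a gene start had a median of 20.5 reads in wild-type S and 18.5 in KO S, against 16 and 11 for those farther away; the part of coverage in these shares was not tested.

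The share near gene starts was higher with more steps. Over all lists it was 1.77% without a step, 2.94% at 1 step, 5.74% at 2 steps, 9.35% at 3 steps and 23.5% at 4 or more (28 of 119 sites, interval 16.2 to 32.2%). At the edge of the rule, contexts with 2 steps and with 1 step had median IPD ratios of 2.67 and 2.68, median coverage of 12 reads in both, and median fractions of 72.8% and 73.7%.

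**Figure D3:**
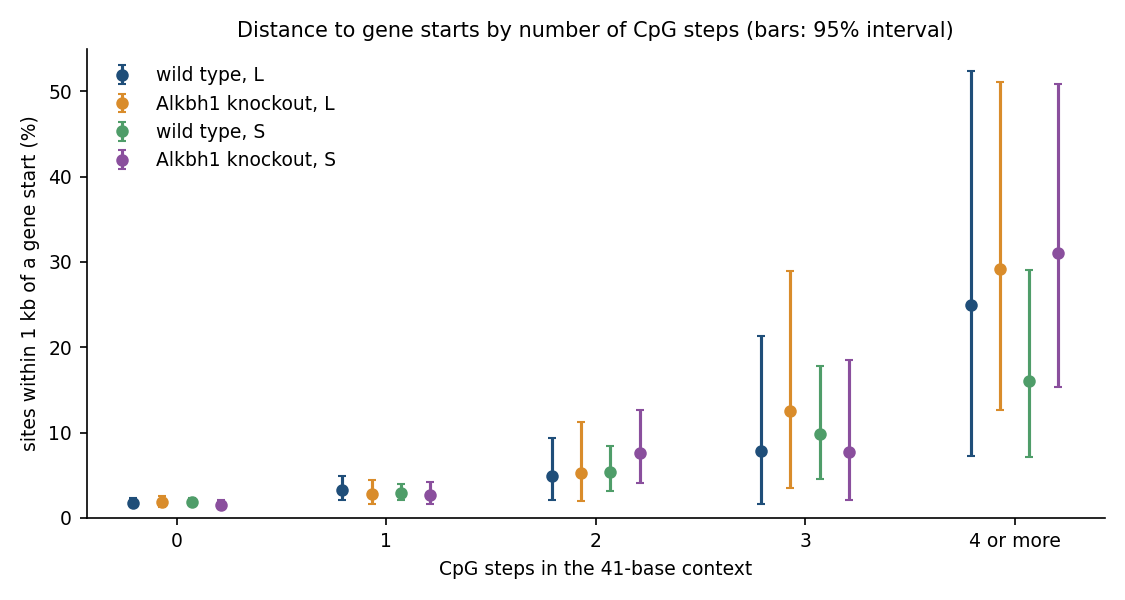
Share of called sites (%) within 1 kb of a RefSeq gene start by the number of CpG steps in the 41-base context, for the 4 lists, with 95% intervals. Without a step the lists lie between 1.45% and 1.88%, and at 4 or more steps between 16% and 31.0%, where the intervals of the lists overlap.

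The 92 members near a gene start belonged to 76 genes, with 62 sites at or after the start and 30 before it. Of the 92 sites, 38 lay within 250 bases of the start. The 76 genes were 14 in wild-type L, 16 in KO L, 27 in wild-type S and 19 in KO S, out of 27025 genes with a start in the table. So few genes per list do not bear on whether the lists share genes.

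A context with the most steps of its list is shown next for each list, and the steps are counted in the whole 41 bases.
KO L, Grin2c, chr11:115267091-115267119, plus strand: tCGgCGggcacCGgAgcCGggCGCGgCGg
Wild-type S, Nt5dc3, chr10:86779181-86779209, plus strand: ggcCGtggctCGagAaCGacCGCGctCGg
KO S, Zzz3, chr3:152396622-152396650, plus strand: caCGccCGccCGCGAgatgccagCGggtC
Wild-type L, in no gene, chr1:17524395-17524423, plus strand: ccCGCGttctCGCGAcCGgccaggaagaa
The Nt5dc3 site, in a gene of a 5′-nucleotidase domain protein, had 9 steps, the most of any member, with an IPD ratio of 2.95 at 18 reads and a fraction of 100%. It lay 190 bases after the gene start and had steps at both 2 and 6 bases. The site of Grin2c, which encodes an NMDA receptor subunit, had 8 steps and an IPD ratio of 3.74 at 10 reads, 138 bases after the start. The site of Zzz3, a zinc-finger protein of the ATAC histone acetyltransferase complex, had 7 steps and an IPD ratio of 2.66 at 10 reads, 48 bases before the start. The wild-type L site, the one with the highest score of 3 with 6 steps, had an IPD ratio of 4.89 at 15 reads, and its sequence belongs to the IAP-like family.

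The largest run of members at a gene start was at Rasgef1b, a guanine nucleotide exchange factor gene, in KO S. It had 5 sites within 91 bases on chr5, from 99252697 to 99252788, between 139 and 230 bases after the start, 4 on the plus strand and 1 on the minus strand. Their IPD ratios were 2.23, 1.80, 1.76, 1.69 and 2.87 in order of position, at 34 to 36 reads. The minus-strand site and the plus-strand site with the highest ratio are shown.
KO S, Rasgef1b, chr5:99252683-99252711, minus strand: aggtgctccaggggAcccCGCGgCGggat
KO S, Rasgef1b, chr5:99252774-99252802, plus strand: gctcaggacCGggaAgggtCGaaCGccag
The last 2 plus-strand calls were at neighbouring bases, and sites this close can share molecules, so the 5 are not separate observations. Pparg, a nuclear receptor gene of fat cell differentiation, had 3 sites in KO S with IPD ratios of 1.89, 2.30 and 2.87 at 14 to 25 reads. Tcl1, an AKT coactivator gene expressed in ES cells, had 2 sites in KO S, 37 and 58 bases after its start, with IPD ratios of 5.52 and 1.82.

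In wild-type S, Cd2ap, a gene of an adaptor protein of the actin cytoskeleton, had 3 sites within 13 bases, 540 to 553 bases after its start, with IPD ratios of 1.64 to 2.31 at 35 to 39 reads. The uncharacterised gene 0610030E20Rik had 3 sites with 3 to 6 steps, and Ndel1, a dynein regulator gene, had 2. Brwd1, a bromodomain gene, had 1 site with 7 steps, at an IPD ratio of 1.75. In KO L, Tnxb, a gene of an extracellular matrix tenascin, had 2 sites near the start of a transcript, and Rpl10a, Dnajb1, Mrfap1 and Syndig1 had 1 each, with IPD ratios of 4.63, 3.72, 1.93 and 3.40. In wild-type L, Msmo1, a gene of sterol synthesis, had 2 sites, and Ppp2ca, Draxin, L3mbtl3 and Med27 had 1 each.

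Within genes at large, 64.8% of members in wild-type L, 63.3% in KO L, 65.6% in wild-type S and 61.1% in KO S lay in a gene body of the RefSeq table, against 50.5%, 48.7%, 49.96% and 48.6% of CpG-free sites. The 4 differences were between 12.5 and 15.6 points and all 4 intervals excluded 0. Of 648 genes with a member in the body, 13 had 3 or more, and in 3 of these the members came from more than 1 list. Pcdh15, a protocadherin gene of sensory hair cells, had 4 sites in wild-type S within 168 bases, with 2 to 7 steps and IPD ratios of 1.57 to 3.80 at 24 to 37 reads. Zfp335, a zinc-finger gene, had 3 sites in KO S within 29 bases, with IPD ratios of 9.0, 2.62 and 4.24 at 8 reads each. Tsc22d1 had 3 in wild-type S, and Gm46174 had 3 in KO L. The highest IPD ratios among members were single sites at few reads: 33.98 in Trim2 (wild-type S, 7 reads), 19.2 in Ncl, the nucleolin gene (KO L, 9 reads), and 13.96 in Zfp704 (wild-type L, 8 reads). Prdm16, a transcription regulator of brown fat and haematopoietic stem cells, had 1 in wild-type L and 2 in KO S, spread over 138548 bases, and the calcium channel gene Cacna1a had 1 in KO L and 2 in KO S.

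Ribosomal DNA was another CpG-rich sequence with members. Within 5 kb of Rn18s-rs5, an 18S ribosomal RNA sequence that the RefSeq table lists as a pseudogene on chr17 (39846354 to 39848202), 8 of 11 calls were CpG-dense: none in wild-type L, 1 in KO L, 3 in wild-type S and 4 in KO S. Their IPD ratios ran from 1.53 to 4.84 at 8 to 77 reads. The genome holds many ribosomal DNA copies, and how reads were placed among them was not tested.

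Genes of lists linked to CpG biology were counted where they held a member. Over all 49939 genes of the table, 1.87% had at least 1 member in the gene or within 5 kb on either side in any list, and 0.388%, 0.326%, 0.783% and 0.433% had one in wild-type L, KO L, wild-type S and KO S. Of 36 imprinted genes, 2 (5.56%) did: Mirg in KO L, with an IPD ratio of 7.03 at 13 reads, and Peg10 in wild-type S, with 2.99 at 9 reads. Of 29 genes of DNA methylation and CpG-binding proteins, 1 did (3.45%): Dnmt1, the maintenance DNA methyltransferase, with 1 site in wild-type L that had 5 steps, an IPD ratio of 3.99 at 8 reads, and steps at both 2 and 6 bases. Of 60 developmental regulators with CpG-rich promoters, 1 did (1.67%), En1 in KO S, at -2376 bases from its start. Of 29 germline genes with methylated CpG-rich promoters, 1 did (3.45%), Tex14 in KO S. Of 68 ribosomal protein genes, 3 (4.41%) had a member, Rpl10a and Rpl7 in KO L and Rplp1 in wild-type L. These counts of 1 to 3 genes per list are too few to set against the background share.

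CpG-dense sites made up 6.26% of calls in wild-type L (5.48 to 7.11%), 6.28% in KO L (5.39 to 7.26%) and 6.95% in wild-type S (6.35 to 7.59%). KO S had the highest share, 8.33% (7.37 to 9.37%). The difference of KO L minus wild-type L was 0.0248 points, with an interval from -1.21 to 1.28. KO S minus wild-type S was 1.38 points (interval 0.228 to 2.59). KO S minus KO L was 2.05 points (interval 0.675 to 3.42). The mean G+C of all contexts was 40.4%, 41.1%, 40.5% and 42.2% in the same order of lists, highest in KO S as the share was. With wild-type S reweighted to the G+C of KO S, its share was 8.05% and the difference 0.281 points. Reweighting KO L in the same way left 1.23 points to KO S. Neither value has an interval. CpG steps are themselves counted in the G+C of the same 41 bases, so this reweighting partly matches the share itself. The part of G+C in these differences was not tested.

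Signal strength was close between CpG-dense and CpG-free sites. Median IPD ratios were 2.65 and 2.65 in wild-type L, 2.84 and 2.64 in KO L, 2.62 and 2.63 in wild-type S, and 2.85 and 2.73 in KO S. The interval of the difference excluded 0 in KO L, at 0.20 (0.04 to 0.36), and included 0 in the other lists. At coverage of 25 or more, which leaves 9 members, the KO L difference was -0.265. Among members alone, the IPD ratio of KO L minus that of wild-type L was 0.19 (interval -0.0021 to 0.37). For the short DNA the difference was 0.23 (interval 0.04 to 0.42), and it came with a median coverage of 11 reads in KO against 16 in wild type. The modified fraction had medians of 76.5% and 73.7%, 80.2% and 70.4%, 68.3% and 73.4%, and 76.5% and 78.3%, and no interval of a difference excluded 0.

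**Figure D4:**
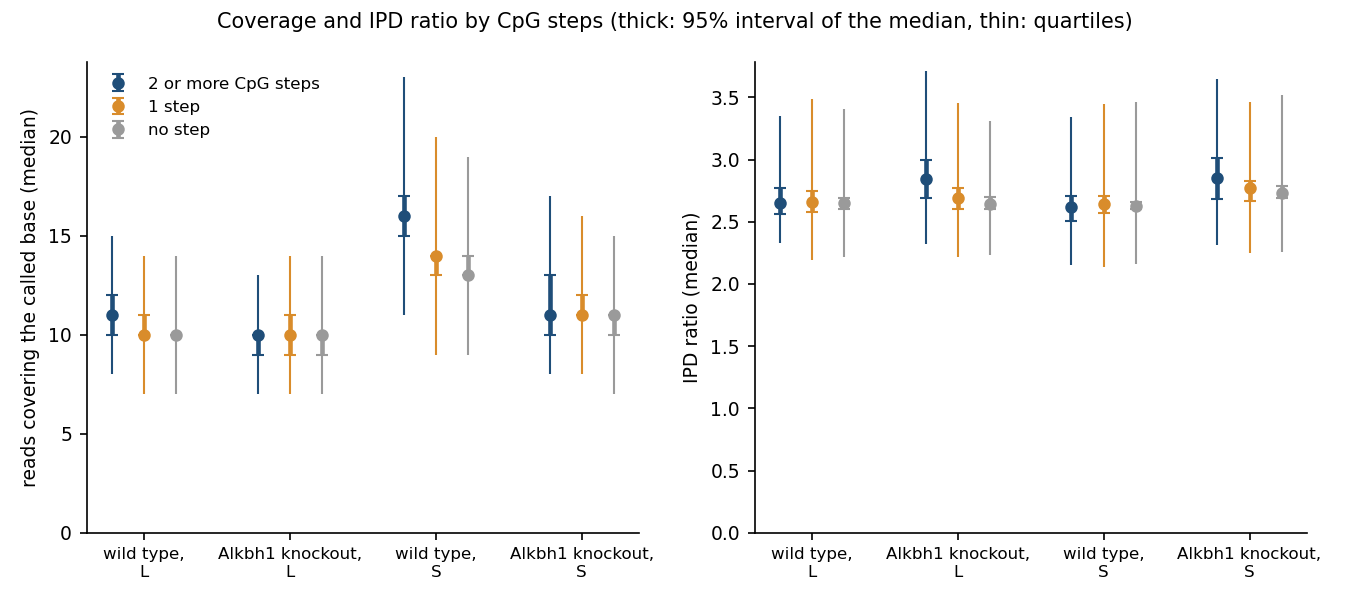
Median coverage (reads, left) and median IPD ratio (right) by the number of CpG steps in the 4 lists; thick bars are 95% intervals of the median and thin bars run between quartiles. Coverage in wild-type S is 16 reads at members and 13 at CpG-free sites, and the quartiles of the IPD ratio overlap in all lists.

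Coverage at the called base was low in all lists, with a minimum of 6 reads. Member and CpG-free medians were 11 and 10 in wild-type L, 10 and 10 in KO L, 16 and 13 in wild-type S and 11 and 11 in KO S, and the wild-type S difference of 3 reads had an interval of 1.59 to 4.0. An identification score of 20 or more, the authors' measure of how well the kinetics fit N6mA, was given to 11.9% of members and 8.45% of CpG-free sites in wild-type L, 9.47% and 8.53% in KO L, 18.5% and 12.8% in wild-type S, and 14.3% and 10.7% in KO S. Only the wild-type S interval (2.10 to 9.66 points) excluded 0. With CpG-free sites reweighted to the members' coverage, the differences were 2.80, 0.635, 3.06 and 1.79 points in the same order of lists, without intervals. Another call lay within 100 bases of 10.96% of members in wild-type L, 18.9% in KO L, 24.2% in wild-type S and 23.4% in KO S; CpG-free sites had 14.7%, 16.6%, 21.6% and 18.6%, and no interval of member minus CpG-free excluded 0. Among members, wild-type S was above wild-type L by 13.2 points (6.99 to 18.9) and KO L above wild-type L by 7.98 points (0.524 to 15.7).

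The bases next to the called adenine differed with the context. A G followed it in 26.5%, 34.3%, 25.9% and 31.3% of members against 20.7%, 21.8%, 20.1% and 27.96% of CpG-free sites, with intervals of the difference that excluded 0 in KO L (5.19 to 20.5 points) and wild-type S (1.66 to 10.2 points). With the CpG-free sites reweighted to the members' G+C, the difference was negative in all 4 lists, at -14.8, -4.33, -13.02 and -13.8 points. These reweighted values have no interval. Compared with other adenines of their own contexts, called adenines of members were followed by G about equally often (28.6% and 29.01%) and by T more often, in 25.1% (interval 22.6 to 27.8%) against 16.2%. The excess of T was not particular to members: it was 28.5% against 20.3% in contexts with 1 step and 29.5% against 22.2% in CpG-free contexts. CAT made up 9.65% of called and 4.57% of other adenines of members, and 10.2% and 5.20% in CpG-free contexts.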

How the data were processed

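The authors' deposited lists of called adenines were used as they stand: 1 list per group, in which the 2 labelled replicates were already joined. Nothing in the labels or files states the aligner or the caller's settings. The genome build is mm10, per the submitters' processing notes. Each call deposited by the authors carries a score (lowest value 20, its scale not stated), an identification score, coverage in reads (lowest value 6), an IPD ratio, a deposited modified fraction where coverage reached 11, and a 41-base context.

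CpG steps were counted in each context, and sites were joined by position to RefSeq gene starts and gene bodies (assembly GRCm38.p6, whose chromosomes are those of mm10). Shares have exact Clopper-Pearson intervals, medians have order-statistic intervals, and differences have square-and-add intervals, all at 95%. These cover counting error only, and reweighted differences have no interval. With 1 list per group no test between groups was possible. Other adenines of a context were those far enough from its ends for every distance up to 10 bases to be read; for the bases next to an adenine, those with at least 2 bases on each side were used. Scripts were tested on simulated data (Python 3.11.15, numpy 2.4.6, pandas 2.3.3, scipy 1.17.1). Named genes were, per list, at most 8 genes with a member within 1 kb of the start, ranked by members and then steps, at most 12 genes with 3 or more members in the body, and at most 5 members of each fixed list. Named sites were, per list, the 3 with most steps, highest score and highest IPD ratio, bases called in 2 or more lists and the largest runs of members. Sites shown for their spacing and the recurring sequences fell outside this rule and were chosen after their values were seen. The members and lists were chosen with earlier results of these data known. A result that needs a withheld item is not reported here.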

Additional observations from a re-analysis of the deposited data

How the results depend on the processing

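Of 244 recomputed values, 176 stayed inside the interval of the value reported, 62 moved outside it and 6 more turned the direction of a value whose interval excluded 0. In all, 35 values had the opposite sign, 19 of them still inside the interval. No paired analysis was possible because each list joins both replicates of its group. None of the values moved when 1 site was kept per run of sites closer than 100 bases (40 values) or when, as chosen after seeing the data, only numbered chromosomes, X and Y at coverage of 100 or less were used (40 values); nor did the spacing results outside the recurring sequences (8 values), the gene start difference at 2 kb (4 values) or the shares at 1 G+C distribution (4 values). Every alternative of the spacing results was chosen after seeing the data. The order of lists below is wild-type L, KO L, wild-type S, KO S, and the cause of each change was not tested. At a score of 30 or more, the coverage difference between CpG-dense and CpG-free sites became 3.0, 1.5, 6.0 and 3.0 reads; the IPD ratio difference -0.28 in wild-type L, -0.22 in wild-type S and -0.195 in KO S; the fraction difference -12.8 points in KO S; the identification score difference 0.736 points in wild-type S; the AG difference -5.11 points and the gene start difference -2.41 points in wild-type L. The CpG-dense share became 7.69% in wild-type L, 8.62% in wild-type S and 11.3% in KO S, with 2.65 points between KO S and wild-type S and 4.79 between KO S and KO L. The excess of steps at 2 bases became 27.2 points in wild-type L, 14.9 in wild-type S and 15.7 in KO S, and at 6 bases 12.6 points in KO L. At coverage of 25 or more, which leaves 8, 9, 105 and 36 members, the share of called adenines followed by G (the AG difference) became 25.7, -2.12, 13.004 and -8.05 points; the IPD ratio difference -0.265 in KO L and 0.21 in wild-type S; the identification score difference 28.8, 33.5, 13.9 and 9.48 points; the fraction difference -23.1 in KO L, 6.70 in wild-type S and 8.55 in KO S; and the gene start difference -2.35 in wild-type L, 0.0 in KO L and 26.9 in KO S. The CpG-dense share became 8.41% in KO L, 12.7% in wild-type S and 18.4% in KO S, with differences of 1.96 points (KO L minus wild-type L), 5.69 (KO S minus wild-type S), 6.23 (wild-type S minus wild-type L) and 9.96 (KO S minus KO L). The excess of steps at 2 bases became 21.6, 33.3 and 1.86 points in wild-type L, KO L and KO S, and at 6 bases 43.1 points in wild-type L. With members of 3 or more steps, the gene start difference became 11.2, 17.8, 10.1 and 14.6 points; the AG difference 22.9 and the fraction difference 22.8 points in KO L; the identification score difference 10.1 points in wild-type L; the coverage difference 5.0 reads in wild-type S; the excess at 2 bases 15.7, 19.3 and 20.5 points in wild-type L, wild-type S and KO S; and the excess at 6 bases 27.4, 27.5 and 28.6 points in wild-type L, KO L and wild-type S. With CpG-free sites reweighted to the members' G+C, the AG difference was -14.8, -4.33, -13.02 and -13.8 points, and in wild-type L the IPD ratio difference was -0.18 and the gene start difference 1.93 points. Reweighted to the members' coverage, the IPD ratio difference in wild-type S was 0.13. Median coverage of 10 to 16 reads at members limits most single sites.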
